A study of Mus musculus with 8 samples.

Results

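The genes described here are 7 surface receptors and ligands that mark dedifferentiated melanoma: the receptor tyrosine kinases Axl, Egfr, Pdgfra, Pdgfrb and Fgfr1, the neurotrophin receptor Ngfr, and the ligand Nrg1. Their chromatin was read from an ATAC-seq count table of mouse melanoma lines. A region of that table belonged to a gene when it lay inside it in GRCm38, or lay within 50 kb of it with that gene as the nearest protein-coding gene end. This gave 119 of 148664 regions: 7 of Axl, 7 of Ngfr, 27 of Egfr, 43 of Nrg1, 16 of Pdgfra, 8 of Pdgfrb and 11 of Fgfr1. Of these, 97 lay inside the gene and 22 outside it, and their lengths ran from 501 to 1882 bp. The counts in 112 of the 119 were high enough to test, and the 7 left out were 6 of Nrg1 and 1 of Egfr.

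ATAC-seq marks open DNA by the insertion of sequencing adapters with the Tn5 transposase. All 4 lines were grown out of lymph nodes of mice that had developed melanoma of the skin. Lines 112 and 113 are labelled as STAT3 knockout (Stat3Δ), and lines 119 and 73 as wild type, which carry the floxed allele Stat3fl. What removed the floxed allele, and any other allele that drives the tumours, are not given in the sources used here. Each line has 2 libraries of 50000 cells, called biological replicates in the labels, so p-values between lines measure only the spread between libraries of a line. The labels call the lines clones in one place and pools in another, and their titles hold the tags p18 (112), p44 (113), p14 (119) and p68 (73), which the labels do not explain. The genotype was compared over the lines, 2 against 2.

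As background, melanoma cells can lose the pigment programme driven by MITF and move toward neural crest-like or mesenchymal-like states, in which AXL, NGFR, EGFR and PDGF receptors are often abundant and drugs against BRAF act less well. AXL binds GAS6, NGFR binds neurotrophins, EGFR binds EGF-type ligands, and NRG1 is a ligand of the ERBB3 and ERBB4 receptors. PDGFRA, PDGFRB and FGFR1 answer to platelet-derived and fibroblast growth factors and are typical of mesenchymal cells such as fibroblasts and pericytes. STAT3 is a transcription factor that cytokine and growth factor receptors activate.

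The promoters of 4 of these genes are shown because the accessibility values at the gene starts can be set beside them. They are the 250 bases upstream of the start, 5′ to 3′, from RefSeq for GRCm38.p6. Axl is on chr7:25788734-25788983, minus strand. Ngfr is on chr11:95587699-95587948, minus strand. Egfr is on chr11:16751953-16752202, plus strand. Pdgfra is on chr5:75152001-75152250, plus strand. Capitals mark matches to the motifs searched.
Axl promoter: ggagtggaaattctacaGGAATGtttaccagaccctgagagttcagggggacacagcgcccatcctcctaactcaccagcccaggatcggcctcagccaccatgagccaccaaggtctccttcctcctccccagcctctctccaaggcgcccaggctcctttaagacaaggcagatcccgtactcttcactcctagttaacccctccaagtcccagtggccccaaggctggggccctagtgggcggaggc
Ngfr promoter: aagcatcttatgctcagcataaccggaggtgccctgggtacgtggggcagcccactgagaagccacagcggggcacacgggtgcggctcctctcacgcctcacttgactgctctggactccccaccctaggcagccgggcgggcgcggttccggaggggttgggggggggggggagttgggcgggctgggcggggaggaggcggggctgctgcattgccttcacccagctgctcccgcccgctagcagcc
Egfr promoter: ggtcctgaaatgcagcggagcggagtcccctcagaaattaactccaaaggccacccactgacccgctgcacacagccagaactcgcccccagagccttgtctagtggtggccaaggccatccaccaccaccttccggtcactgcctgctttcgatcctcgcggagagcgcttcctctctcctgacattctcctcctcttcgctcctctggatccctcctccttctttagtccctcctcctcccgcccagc
Pdgfra promoter: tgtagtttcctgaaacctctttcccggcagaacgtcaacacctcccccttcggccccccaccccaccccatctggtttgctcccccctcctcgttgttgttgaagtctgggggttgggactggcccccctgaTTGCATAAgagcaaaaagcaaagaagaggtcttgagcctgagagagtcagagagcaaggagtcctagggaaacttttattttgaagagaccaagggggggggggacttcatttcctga

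These windows differed in base composition. The Ngfr promoter was 70.4% G or C with 16 CpG dinucleotides, that of Egfr 60.8% with 11, that of Axl 60.0% with 5 and that of Pdgfra 54.4% with 4, where the median over 32851 promoters was 52.4% G or C. The motifs searched on both strands were AP-1 (TGANTCA), STAT (TTCNNNGAA), C/EBP (TTGCNNAA), TEAD (GGAATG), SOX (ACAAAG) and the E-boxes CACGTG and CATGTG. The Axl window held 1 TEAD match, 227 bp from the start, and the Pdgfra window 1 C/EBP match, 110 bp from the start. The Ngfr and Egfr windows held 0 matches to these letters. Among all promoters of this length, 12.6% held the TEAD letters, 9.56% those of C/EBP, 6.75% those of AP-1, 7.02% those of STAT, 16.5% those of SOX, 6.02% CACGTG and 12.3% CATGTG. A match is a string of letters and not a bound site. The regions at the starts of Axl, Ngfr and Egfr overlapped these windows, and 0 of the table's regions overlapped that of Pdgfra. The entries for Nrg1, Pdgfrb and Fgfr1 are not shown, and positions within exons or introns were not used here.

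The libraries held 2697546 to 7464336 counts, and the authors' peak lists 20387 to 94906 peaks, with the fewest counts and peaks in line 112 replicate 2. Levels are given as CPM, the counts per 1000000 counts of a library after TMM scaling. At this depth the median member region held 11 counts in a library, and 37 of the 119 averaged under 10, so low levels are imprecise. A level of 3 counts, taken as the floor, was 0.388 to 0.923 CPM over the libraries. The gene for STAT3 itself was not lower in the knockout lines. Its accessibility summed over its regions averaged 86.4 CPM in line 112, 78.7 in 113, 57.1 in 119 and 59.5 in 73. That log2 fold change of knockout over wild type was 0.48 ± 0.27 (SE, adjusted p = 0.663 in edgeR's quasi-likelihood test). The sum was higher in both knockout lines than in both wild-type lines in all 4 pairs, and accessibility does not check whether the gene was deleted.

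The 4 lines had different patterns over the 7 genes, and the lowest line was most often knockout line 113. Of the 112 tested regions, 75 (67.0%) had their lowest line mean in line 113, against 26.8% of all regions tested. The highest mean was in wild-type line 73 for 57 (50.9%, against 31.4% of all regions), in line 119 for 30 (26.8%, against 26.3%), in line 112 for 20 (17.9%, against 15.9%) and in line 113 for 5 (4.46%, against 26.5%). The low standing of line 113 held for 6 of 7 regions of Axl, 23 of 26 of Egfr, 31 of 37 of Nrg1, 5 of 8 of Pdgfrb and 5 of 11 of Fgfr1. Ngfr and Pdgfra had other patterns. For Ngfr the lowest line was 73 in 6 of 7 regions, and for Pdgfra it was 119 in 10 of 16.

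**Figure D1:**
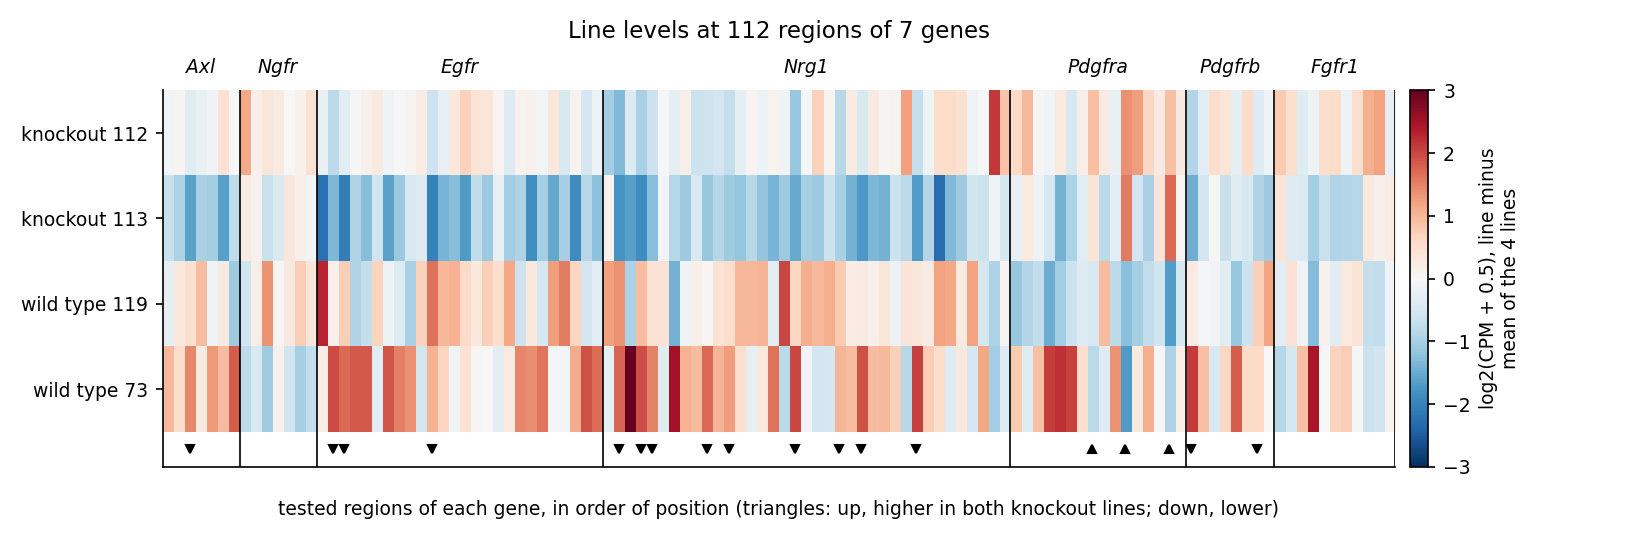
Levels of the 112 tested member regions in the 4 lines, one column per region, grouped by gene and ordered by position, and one row per line. The colour is log2(CPM + 0.5) of the line mean minus its mean over the 4 lines, and triangles mark regions with both knockout lines above (up) or below (down) both wild-type lines in all 4 pairs. Line 113 is lowest in 75 of the 112 columns, mostly in Axl, Egfr and Nrg1, while most columns of Ngfr are lowest in line 73 and 10 of the 16 of Pdgfra in line 119.

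Knockout line 113 had lower accessibility than each wild-type line in over 50% of these regions. Against line 73, edgeR's quasi-likelihood test with adjustment over 140329 regions called 72 of 112 member regions lower in line 113 (64.3%) and 6 higher (5.36%), where 26.5% of all regions were called lower and 25.8% higher. Against line 119 it called 59 lower (52.7%) and 7 higher (6.25%), where the shares of all regions were 28.8% and 30.2%. The median log2 fold change of the members was -1.82 against line 73 and -1.30 against line 119, beside -0.01 and 0.10 over all regions. The few regions higher in line 113 numbered 3 against line 73 without line 73 replicate 2, and against line 119 they numbered 2 without line 119 replicate 1 and 3 without line 113 replicate 1.

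Knockout line 112 differed less from the wild-type lines. Against line 73 it was lower in 47 member regions (42.0%, background 26.1%) and higher in 17 (15.2%, background 23.8%), with a median of -0.57. The 17 higher were 9 without line 112 replicate 1. Against line 119 it was lower in 29 (25.9%, background 23.5%) and higher in 22 (19.6%, background 22.2%), with a median of 0.02. The shares against line 119 lie close to those of all regions. The number of calls against line 119 was 30 when line 119 replicate 1 was left out, in place of 51.

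The lines also differed within a genotype. Line 112 was higher than line 113 in 36 member regions (32.1%) and lower in 1 (0.893%), where the test called 8.24% of all regions higher and 15.6% lower. The median over members was 1.09, beside 0.08 over all regions. Without line 113 replicate 1 the calls between these lines numbered 21, in place of 37. Between the wild-type lines, 48 regions were lower in line 119 than in line 73 (42.9%, background 29.4%) and 24 were higher (21.4%, background 27.5%), with a median of -0.62. The 24 higher were 15 without line 73 replicate 1 and 14 without line 73 replicate 2.

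**Figure D2:**
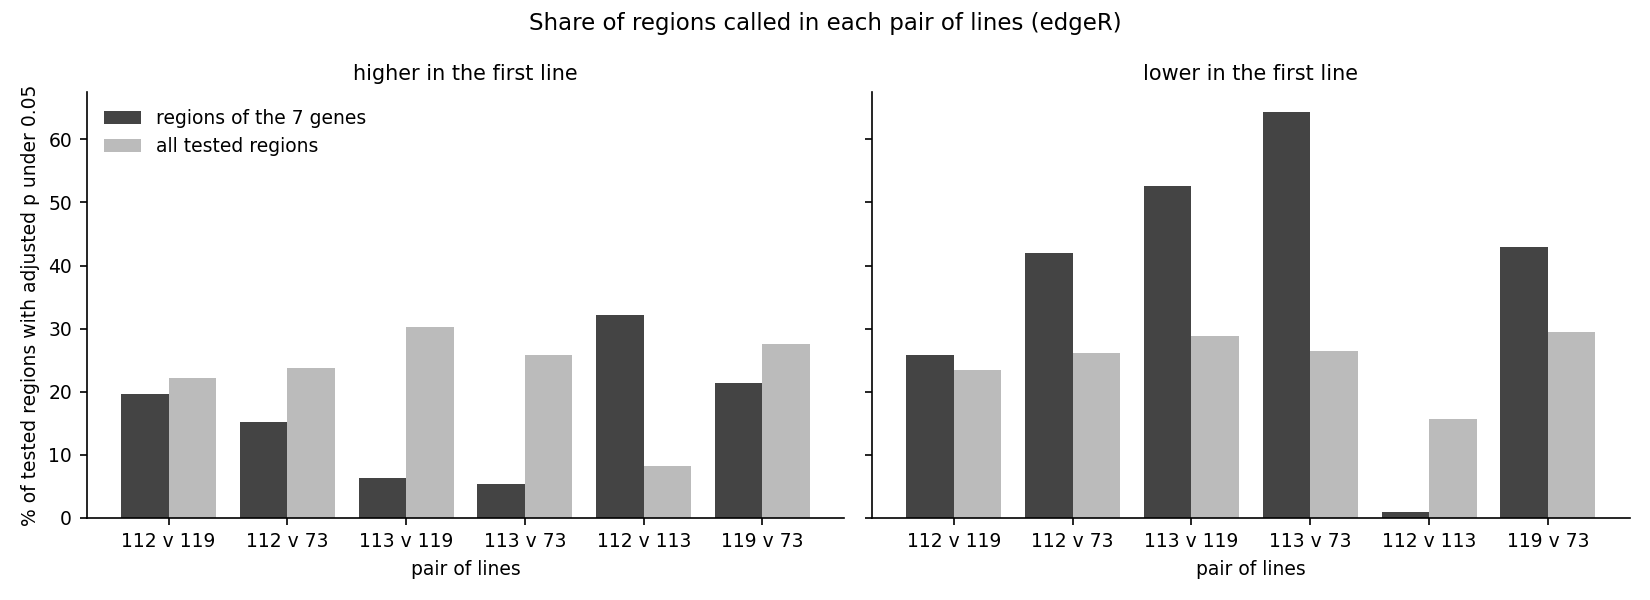
Percent of regions with an adjusted p under 0.05 that were higher (left) or lower (right) in the first line of each of the 6 line pairs, as dark bars for the 112 tested member regions and grey bars for all 140329 tested regions. In line 113 against line 73 the lower bar stands at 64.3% for members and 26.5% for all regions, and in line 112 against line 113 the higher bar at 32.1% and 8.24%.

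With the line as the unit, no member region was called for the genotype. The edgeR test called 0 of 112, as it did for all 140329 regions (0.0%). At an unadjusted p under 0.05 there were 3 member regions higher in knockout and 22 lower, where 8.27% of all regions were higher and 8.64% lower. The smallest adjusted p among members was 0.143. DESeq2's Wald test called 8 (7.14%, where it called 4.17% of all regions) and limma-voom 0. The median genotype log2 fold change was -1.17 over members and -0.09 over all regions.

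A description that does not test the genotype is the number of regions in which both knockout lines stood apart from both wild-type lines, that is, in which all 4 knockout to wild-type pairs were called with the same sign. Such separated regions numbered 15 lower in knockout (13.4% of members, where 7.41% of all regions were) and 3 higher (2.68%, where 7.64% were). Those lower were 9 of Nrg1, 3 of Egfr, 2 of Pdgfrb and 1 of Axl, with genotype log2 fold changes of -3.66 to -1.50. The 3 higher were all of Pdgfra. Ngfr and Fgfr1 had 0. Without line 119 replicate 1 the separated regions numbered 9 in place of 18.

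Axl, the receptor of GAS6 and a marker of invasive melanoma, was least accessible in line 113. The region over the start, chr7:25788307-25789013, contains the promoter window shown above. It measured 25.4 and 20.0 CPM in the libraries of line 112, 3.63 and 6.53 in line 113, 20.8 and 19.9 in 119, and 33.5 and 31.7 in 73. Line 113 was below the other lines in both libraries, while line 112 lay among the wild-type libraries. The log2 fold change of line 113 over line 73 was -2.69 ± 0.27 (SE, adjusted p = 5.24e-13), and over line 119 it was -2.01 ± 0.27 (adjusted p = 5.65e-09). Line 112 exceeded line 113 by 2.18 ± 0.28 (adjusted p = 2.72e-08) and was not called against line 119 (0.17 ± 0.21, adjusted p = 0.546). Against line 73, line 112 was called lower (-0.51 ± 0.22, adjusted p = 0.0431).

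The strongest Axl region lay 6.80 kb into the gene, at chr7:25781366-25782493, and was a peak in all 8 libraries. It measured 50.0 and 32.0 CPM in line 112, 17.4 and 22.3 in line 113, 49.6 and 47.1 in 119, and 54.8 and 56.7 in 73, again lowest in line 113 (log2 fold change over line 73 -1.49 ± 0.20, adjusted p = 2.36e-09). The separated region of Axl, at chr7:25783674-25784242, had 5.59 and 7.08 CPM in line 112, 1.59 and 3.15 in line 113, 11.9 and 12.0 in 119 and 25.4 and 21.1 in 73. Here the knockout and wild-type libraries did not overlap, and all 6 line pairs were called. The difference of line 113 from line 73 was -3.30 ± 0.34 (adjusted p = 1.27e-12) and that of line 112 from line 119 was -0.93 ± 0.30 (adjusted p = 0.00819). With the line as unit the same region gave -2.04 ± 0.87 (adjusted p = 0.248). A region 4.43 kb upstream of the start, at chr7:25792897-25793437, was high in line 73 at 11.3 and 13.3 CPM and between 1.01 and 4.62 CPM in the other 6 libraries.

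Ngfr, the neurotrophin receptor of neural crest cells, had the lowest levels in line 73. Its start region, chr11:95587393-95587951, measured 9.08 and 6.46 CPM in line 112, 8.16 and 7.50 in line 113, 12.3 and 11.8 in 119, and 4.87 and 1.67 in 73. Both knockout lines sat between the wild-type lines, and the genotype log2 fold change was -0.00 ± 0.84 (adjusted p = 1). Line 119 exceeded line 73 by 1.85 ± 0.34 (adjusted p = 6.27e-06), line 112 by 1.24 ± 0.39 (adjusted p = 0.00609) and line 113 by 1.23 ± 0.38 (adjusted p = 0.00499). The strongest Ngfr region, chr11:95586129-95586893, ranged from 4.45 CPM in a library of line 73 to 12.6 in a library of line 113. Its difference of line 113 over line 73 was 0.97 ± 0.31 (adjusted p = 0.0071), which was 0.0515 without line 113 replicate 2 and 0.153 without line 73 replicate 2.

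Past the end of Ngfr by 86 bp, the region chr11:95568167-95568732 was high in line 119 and low in line 73. It held 9.05 and 11.0 CPM in line 119 and 1.54 and 1.39 in line 73, with 5.35 and 4.31 in 112 and 2.27 and 1.94 in 113. The log2 fold change of line 119 over line 73 was 2.74 ± 0.40 (adjusted p = 3.92e-08) and that of line 113 over line 119 was -2.23 ± 0.35 (adjusted p = 3.21e-07).

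**Figure D3:**
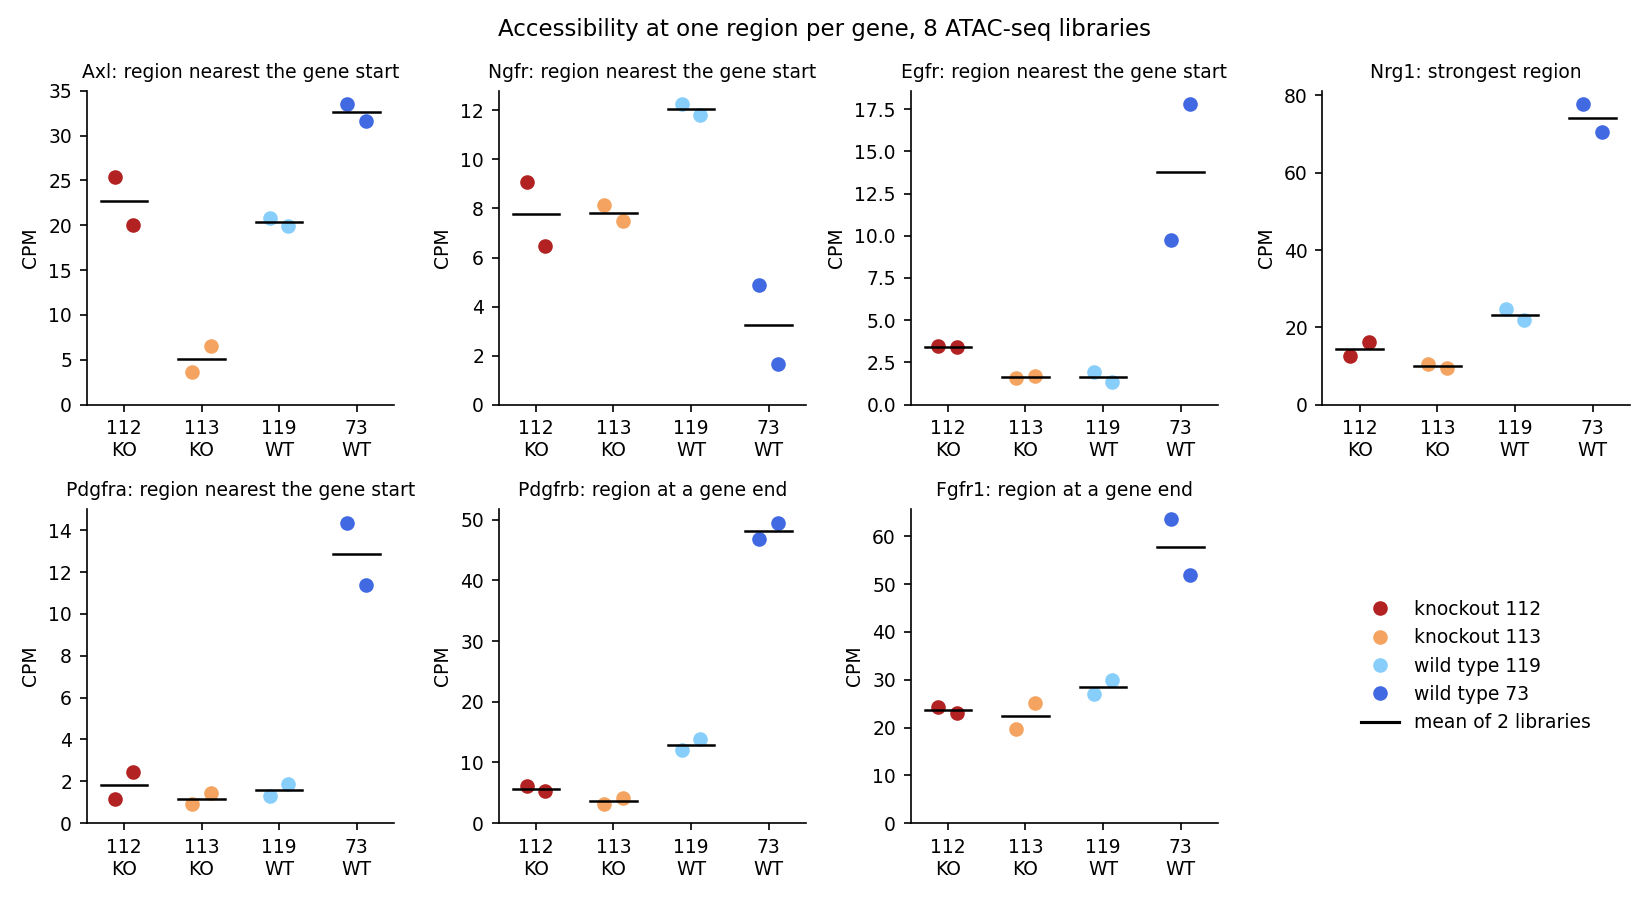
CPM in each of the 8 libraries for 1 region of each gene: the region nearest the gene start for Axl, Ngfr, Egfr and Pdgfra, the region at a gene end for Pdgfrb and Fgfr1, and the strongest region for Nrg1, which has none at an end. Points are libraries and black lines are the means of the 2 libraries of a line. Line 73 is highest in every panel but that of Ngfr, where it is lowest, and line 113 is low for Axl.

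Egfr, the receptor of EGF-type ligands, was little open at its start except in line 73. The region there, chr11:16751963-16752463, measured 3.49 and 3.39 CPM in line 112, 1.59 and 1.69 in line 113, 1.94 and 1.35 in 119, and 9.73 and 17.8 in 73. Lines 113 and 119 were thus lowest and line 73 highest, and line 119 differed from line 73 by -3.00 ± 0.35 (adjusted p = 1.14e-10). The 3 pairs with line 73 were called, among them line 113 at -3.04 ± 0.39 (adjusted p = 1.29e-09), and the other 3 pairs were not. The genotype value was -1.56 ± 1.00 (adjusted p = 0.448). A stronger region beside it, chr11:16752511-16753324, lay 308 bp from the start. Its line means were 5.33 CPM in line 112, 1.65 in 113, 2.68 in 119 and 18.3 in 73. There line 112 was called above line 119 (0.97 ± 0.38, adjusted p = 0.0307) and above line 113 (1.65 ± 0.46, adjusted p = 0.00517).

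Line 119 had the highest line mean in 11 of the 26 tested Egfr regions (42.3%, against 26.3% of all regions). Line 73 had it in 13 (50.0%, against 31.4%). The 2 described next were highest in line 119, though both overlapped a peak in both libraries of line 73 as well. The strongest, chr11:16895373-16895984, lay 143 kb from the start inside the gene, and measured 23.3 and 21.8 CPM in line 119, 6.40 and 7.78 in line 73, 7.22 and 3.39 in 112 and 3.17 and 3.87 in 113. Line 119 exceeded line 73 by 1.67 ± 0.28 (adjusted p = 7.73e-07), and line 113 over line 119 was -2.67 ± 0.30 (adjusted p = 8.04e-11). Upstream, chr11:16716526-16717150 held 22.9 and 20.1 CPM in line 119 against 4.35 and 5.00 in line 73 and 3.72 and 3.08 in 112. In line 113 it held 0.680 and 0.242, at or below the floor of 3 counts.

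The 3 separated Egfr regions were all lower in knockout. The region chr11:16800411-16800990, 48.5 kb into the gene, had 2.10 and 3.39 CPM in line 112, 0.453 and 0.968 in line 113, 16.8 and 12.7 in 119 and 8.45 and 10.8 in 73. Its genotype log2 fold change was -2.90 ± 0.95 (adjusted p = 0.168). The other 2 lay 16.8 and 14.4 kb upstream of the start. At chr11:16735128-16735739 line 73 held 14.9 and 14.7 CPM and line 119 4.14 and 3.55, against 2.33 and 1.23 in line 112 and 1.13 and 0.968 in 113. At chr11:16737292-16738282 each library of line 113 held 1 count. There line 112 had 2.33 and 1.54 CPM, line 119 had 5.04 and 4.22, and line 73 had 9.47 and 9.45.

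Regions around Egfr at large also differed between the lines. Over the 289 regions between 10 and 20 Mb of chromosome 11, the median log2 level of a line against the mean of the lines was -0.89 in line 113 and 0.90 in 119. When each line was scaled to such regional medians, calls for Egfr regions in line 113 against line 119 went from 17 lower and 0 higher to 7 lower and 2 higher. The median over its regions went from -2.20 to -0.44, and its separated regions numbered 1 in place of 3. In line 112 against line 119 the direction turned, from 1 higher and 7 lower (median -0.47) to 7 higher and 3 lower (median 0.53). In line 119 against line 73 the calls went from 7 higher and 12 lower (median -0.15) to 1 higher and 13 lower (median -1.20). The medians of the other 6 genes' neighbourhoods lay between -0.38 and 0.24. The levels given above for Egfr are without this scaling.

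Nrg1, the ERBB3 and ERBB4 ligand, is a very long gene (chr8:31807452-32891609) with 43 regions inside it and 0 at either end. Its strongest region, chr8:32008436-32009971, was a peak in all 8 libraries and was separated. It measured 12.6 and 16.3 CPM in line 112, 10.4 and 9.43 in line 113, 24.8 and 21.8 in 119 and 77.8 and 70.6 in 73. The knockout libraries lay below the wild-type libraries without overlap. Line 73 was also far above line 119 (line 119 over line 73 -1.67 ± 0.18, adjusted p = 9.65e-12). The log2 fold change of line 112 over line 119 was -0.71 ± 0.21 (adjusted p = 0.00494) and that of line 113 over line 73 was -2.90 ± 0.21 (adjusted p = 1.05e-17). The genotype value was -2.02 ± 0.70 (adjusted p = 0.180).

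In a separated region near an end of Nrg1, the wild-type lines were not called apart. This region, chr8:31829116-31829728, held 2.10 and 1.54 CPM in line 112, 0.680 and 1.69 in line 113, 15.6 and 12.8 in 119, and 18.4 and 19.7 in 73. Its genotype log2 fold change of -3.47 ± 0.90 had the smallest adjusted p of the members (0.143), and line 119 was not called against line 73 (-0.41 ± 0.24, adjusted p = 0.14). At chr8:31845812-31846366 the libraries of line 112 held 1 and 6 counts and those of line 113 3 and 0, against 5.43 and 5.07 CPM in line 119 and 10.8 and 11.4 in line 73. Its genotype value was -3.66 ± 1.00 (adjusted p = 0.144).

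More separated regions lay deeper in Nrg1. At chr8:32199730-32200270 the levels were 1.16 and 3.08 CPM in line 112, 1.81 and 1.21 in line 113, 9.82 and 6.92 in 119 and 21.5 and 23.9 in 73 (genotype -3.14 ± 0.92, adjusted p = 0.148). At chr8:32334341-32334913 they were 0.931 and 1.85, 0.680 and 0.242, 3.49 and 3.21, and 12.3 and 12.0 in the same order of lines (-3.09 ± 1.00, adjusted p = 0.165). The other 4 separated Nrg1 regions had genotype values of -2.70 to -2.05. Some regions of the gene were open in line 73 alone. At chr8:31842061-31842582 line 73 measured 23.3 and 17.2 CPM and the 6 other libraries 0.242 to 1.54 (line 119 over line 73 -4.49 ± 0.36, adjusted p = 7.25e-16). At chr8:31975677-31976233 line 73 measured 14.9 and 14.2 CPM and line 119 0.776 and 0.169 (-4.76 ± 0.42, adjusted p = 3.15e-14).

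**Figure D4:**
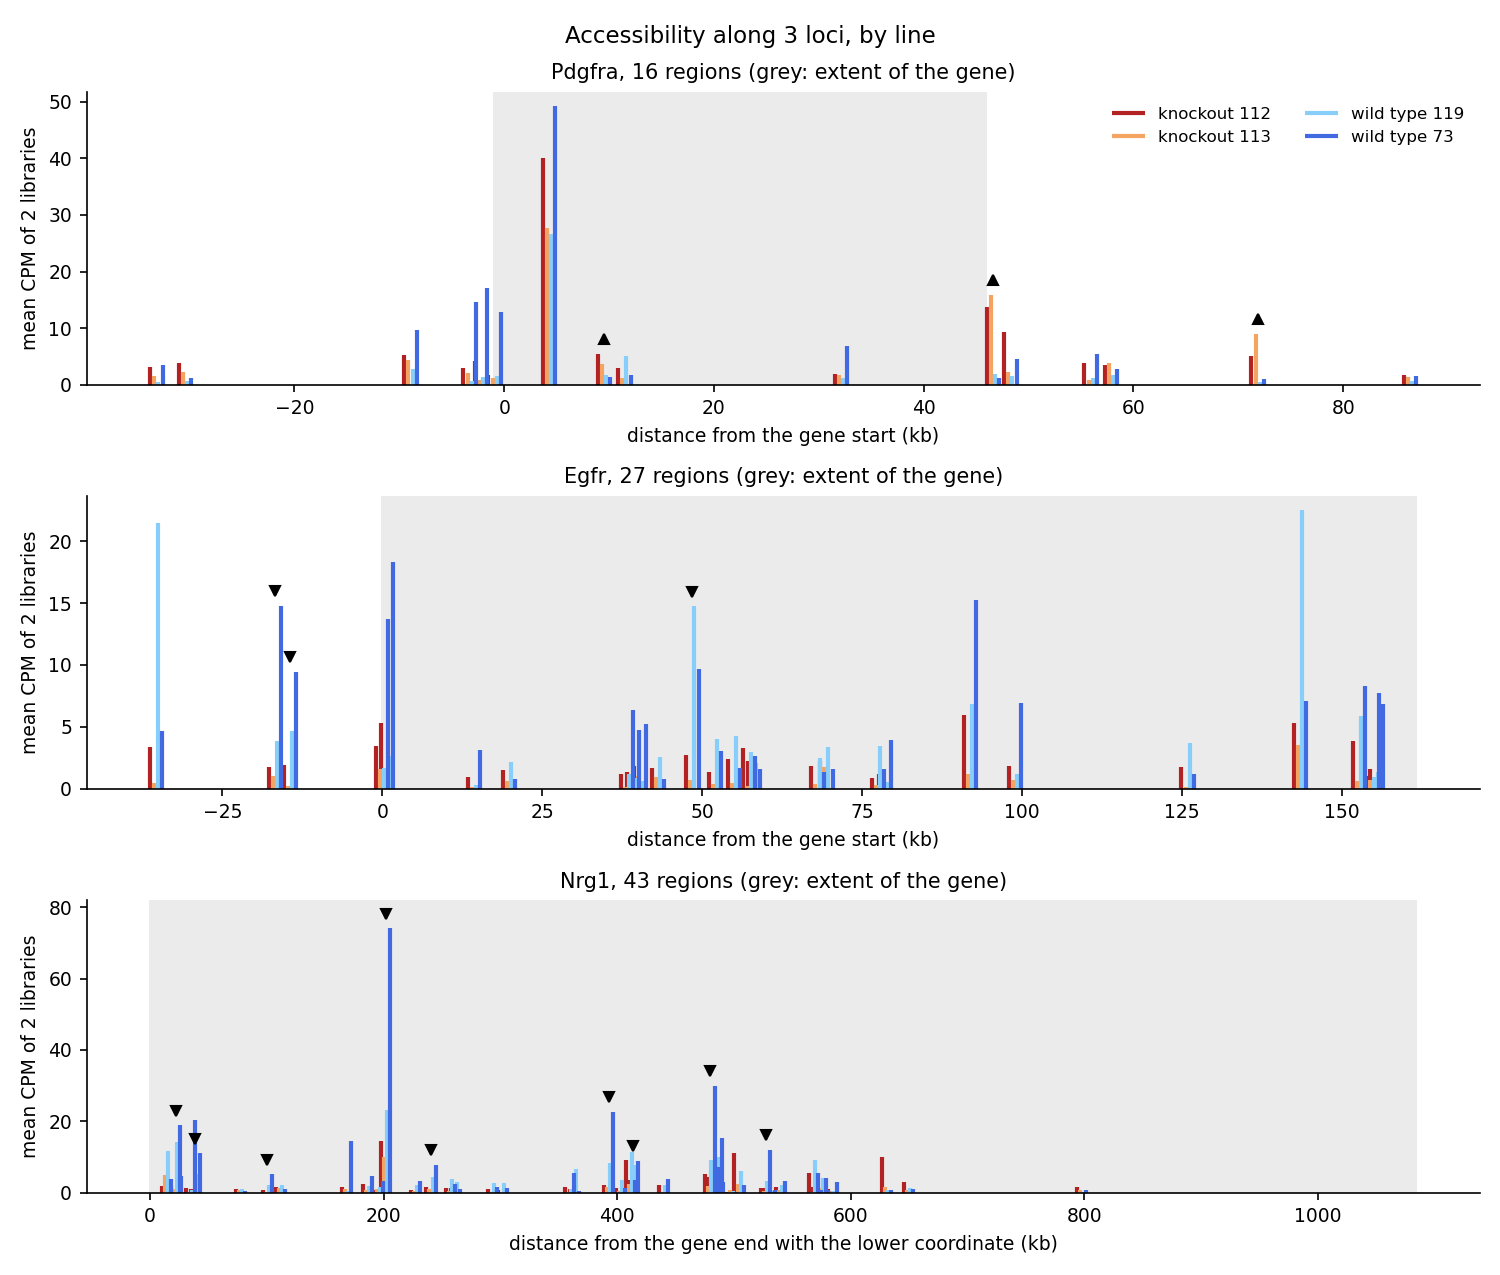
Line means in CPM of the regions of Pdgfra, Egfr and Nrg1, as bars coloured by line and set side by side for visibility, against the distance in kb from the gene start (Pdgfra, Egfr) or from the gene end with the lower coordinate (Nrg1). Grey shading is the gene, and triangles mark the separated regions, higher (up) or lower (down) in knockout. The 3 of Pdgfra lie inside the gene, just past its end and farther downstream, the 3 of Egfr upstream and inside, and the 9 of Nrg1 between 21.97 and 527.17 kb from that end.

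Pdgfra, the alpha receptor of platelet-derived growth factors, combined regions high in line 73 with regions high in both knockout lines. Near its start, chr5:75151090-75151590 spans the annotated start of the gene and lies 661 bp before the start used for the promoter above. It measured 1.16 and 2.46 CPM in line 112, 0.906 and 1.45 in line 113, 1.29 and 1.86 in 119 and 14.3 and 11.4 in 73. Line 73 was high here and the other 3 lines low, and line 119 over line 73 was -3.04 ± 0.35 (adjusted p = 1.15e-10). Farther upstream, chr5:75149768-75150306 held 18.4 and 15.8 CPM in line 73 and 0.905 to 4.93 elsewhere, and chr5:75148691-75149205 held 17.2 and 12.0 in line 73 and 0.517 to 4.62 elsewhere. The strongest region, chr5:75155587-75157468, was a peak in all 8 libraries. There the levels were 37.2 and 42.8 CPM in line 112, 26.7 and 28.8 in line 113, 24.0 and 29.2 in 119 and 57.1 and 41.4 in 73.

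The 3 regions that were higher in both knockout lines lay in and past the gene. At chr5:75198498-75199191, 292 bp past the gene's end, the libraries measured 19.3 and 8.31 CPM in line 112, 16.5 and 15.2 in line 113, 1.81 and 1.86 in 119 and 0.768 and 1.67 in 73. Every knockout library exceeded every wild-type library, and neither the knockout lines (line 112 over 113 -0.16 ± 0.27, adjusted p = 0.712) nor the wild-type lines (0.60 ± 0.60, adjusted p = 0.406) were called against each other. Line 113 over line 119 was 3.10 ± 0.35 (adjusted p = 4.21e-11) and line 112 over line 73 was 3.54 ± 0.45 (adjusted p = 1.55e-09). With the line as unit the value was 3.29 ± 0.90 (adjusted p = 0.144).

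Another region of this kind lay 25.6 kb past the gene's end, at chr5:75223818-75224364. It held 6.75 and 3.39 CPM in line 112, 7.70 and 10.4 in line 113, 0.517 and 0.338 in 119 and 1.02 and 1.11 in 73, so that all wild-type libraries were near the floor. The genotype value was 3.27 ± 0.96 (adjusted p = 0.147). Inside the gene, chr5:75161451-75162069 measured 6.75 and 4.31 CPM in line 112, 4.53 and 2.90 in line 113, 1.42 and 2.20 in 119 and 1.02 and 1.67 in 73 (1.58 ± 0.86, adjusted p = 0.36).

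Pdgfrb, the beta receptor of platelet-derived growth factors and a marker of pericytes and fibroblasts, was most open in line 73. Its strongest region spans a gene end at chr18:61044722-61045578, and measured 6.05 and 5.23 CPM in line 112, 3.17 and 4.11 in line 113, 12.0 and 13.8 in 119, and 46.9 and 49.5 in 73. The groups did not overlap, and the wild-type lines differed from each other by -1.90 ± 0.21 (line 119 over 73, adjusted p = 3.36e-11). Line 112 over line 119 was -1.18 ± 0.28 (adjusted p = 0.000528), line 113 over line 73 was -3.72 ± 0.27 (adjusted p = 1.79e-17) and the genotype value was -2.70 ± 0.82 (adjusted p = 0.154). The other separated region, chr18:61071762-61072283, held 1.63 and 6.46 CPM in line 112, 2.95 and 2.42 in line 113, 10.1 and 8.61 in 119 and 9.73 and 7.22 in 73. Here the wild-type lines were not called against each other (0.14 ± 0.30, adjusted p = 0.707). At chr18:61058335-61058858 only line 73 was high, with 19.7 and 12.2 CPM against 1.55 to 4.31 elsewhere.

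Fgfr1, a receptor of fibroblast growth factors, was more open at a gene end in line 73 than in the other 3 lines. The region chr8:25518510-25519751 was its strongest and a peak in all 8 libraries, with 24.2 and 23.1 CPM in line 112, 19.7 and 25.2 in line 113, 27.0 and 29.9 in 119 and 63.5 and 52.0 in 73. Line 73 stood above the rest: the log2 fold change was -1.02 ± 0.18 for line 119 over line 73 (adjusted p = 1.86e-06) and -1.37 ± 0.19 for line 113 over line 73 (adjusted p = 1.01e-08). Line 112 over line 119 (-0.26 ± 0.19, adjusted p = 0.273) and line 113 over line 119 (-0.34 ± 0.19, adjusted p = 0.119) were not called. Inside the gene, chr8:25521426-25521940 was high in line 73 at 24.3 and 19.5 CPM and 0.646 to 4.31 elsewhere (line 119 over line 73 -4.28 ± 0.35, adjusted p = 2.66e-15). By contrast chr8:25544725-25545326 was highest in line 112, with 5.59 and 5.23 CPM there, 4.30 and 1.69 in line 113, and 0.833 to 1.79 in the wild-type libraries.

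Because the regions differ in length, levels were compared between genes per kb of region. The regions were picked by unlike rules, which the length does not correct. For Axl, Ngfr, Egfr and Pdgfra it was the region nearest the start. For Pdgfrb and Fgfr1 it was the strongest within 1 kb of either end, which was also the strongest of the gene. Over line means, the region at a gene end or start held 46.1 CPM per kb for Axl, 56.2 for Pdgfrb and 46.5 for Fgfr1 in line 73, against 27.5 for Egfr, 25.7 for Pdgfra and 5.84 for Ngfr. In line 113 the order was another: Fgfr1 18.1 CPM per kb, Ngfr 14, Axl 7.18, Pdgfrb 4.25, Egfr 3.27 and Pdgfra 2.35. In line 112 Axl led with 32.1, before Fgfr1 with 19.0 and Ngfr with 13.9. In line 119 Axl also led, with 28.8, before Fgfr1 with 22.9 and Ngfr with 21.6.

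The sum over all regions of a gene gives 1 value per gene, which the strong regions dominate. Of the 17957 loci tested this way, edgeR's quasi-likelihood test called 0 for the genotype (0.0%), and so 0 of the 7, as did DESeq2's Wald test and limma-voom. At an unadjusted p under 0.05 there were 3, Egfr, Nrg1 and Pdgfrb, all lower in knockout, where 6.16% of all loci were lower and 3.28% higher. These 3 loci were also lower in both knockout lines than in both wild-type lines in all 4 pairs, as 7.14% of all loci were, and 0 of the 7 were separated the other way, as 4.86% of all loci were.

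The Nrg1 sum was 147 and 141 CPM in line 112, 46.1 and 47.3 in line 113, 249 and 211 in 119, and 278 and 286 in 73. All 6 line pairs were called, the nearest neighbours being lines 119 and 73 (-0.29 ± 0.10, adjusted p = 0.0167). The genotype log2 fold change was -1.45 ± 0.53 (adjusted p = 0.453). The Egfr sum was 69.7 and 79.2 CPM in line 112, 15.8 and 21.9 in line 113, 159 and 133 in 119 and 131 and 156 in 73. Lines 119 and 73 were not called apart (0.02 ± 0.12, adjusted p = 0.88), and line 112 exceeded line 113 by 1.99 ± 0.17 (adjusted p = 1.73e-09). Its genotype value was -1.67 ± 0.63 (adjusted p = 0.483), and -1.08 with regional scaling (adjusted p = 0.560). The Pdgfrb sum was 38.5 and 53.1 CPM in line 112, 26.6 and 19.4 in line 113, 62.6 and 64.2 in 119 and 107 and 91.2 in 73, with all pairs called and a genotype value of -1.28 ± 0.41 (adjusted p = 0.372).

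The sums of the 4 other genes were not separated. The Axl sum was 110 and 99.0 CPM in line 112 and 31.5 and 37.7 in line 113. Line 119 had 127 and 119 CPM, and line 73 had 144 and 143. Line 113 stood lowest, at -1.84 ± 0.13 over line 119 (adjusted p = 4.63e-12), while line 112 over line 119 was -0.24 ± 0.12 (adjusted p = 0.0953). Against line 73, line 112 was called lower (-0.45 ± 0.12, adjusted p = 0.00214), and every knockout library lay below every wild-type library. The Ngfr sum was 42.3 and 49.3 CPM in line 112, 28.9 and 30.5 in line 113, 51.5 and 57.2 in 119 and 21.9 and 13.1 in 73, and its genotype value was 0.04 ± 0.55 (adjusted p = 0.992). Its lowest line was 73 and its highest 119, at 1.61 ± 0.17 over line 73 (adjusted p = 1.35e-08).

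For Pdgfra the sum was 122 and 130 CPM in line 112, 71.7 and 72.9 in line 113, 53.0 and 65.8 in 119 and 126 and 112 in 73. Lines 112 and 73 were high and lines 113 and 119 low. Lines 112 and 73 were not called apart (0.08 ± 0.12, adjusted p = 0.598), nor were 113 and 119 (0.29 ± 0.13, adjusted p = 0.0536). For Fgfr1 it was 118 and 108 CPM in line 112, 48.9 and 54.0 in line 113, 86.9 and 90.0 in 119 and 133 and 116 in 73, lowest in line 113 (-0.78 ± 0.12 over line 119, adjusted p = 6.57e-06). Lines 73 and 112 were not called apart (-0.14 ± 0.12, adjusted p = 0.328). In all, 35 of the 42 line pairs of the 7 sums were called, where the test called 48.4% of all loci between 112 and 119, 51.1% between 112 and 73, 57.1% between 113 and 119, 51.4% between 113 and 73, 39.4% between 112 and 113 and 56.5% between 119 and 73. Locus sums and regions were scaled by separate TMM factors. The locus scaling differed from the region scaling by -0.40 to 0.43 on the log2 scale, depending on the pair. Under the region scaling line 73 was above line 119 for Egfr and above line 112 for Pdgfra, and the order of the lines was otherwise as given. That scaling gave Pdgfra 108.7, 80.2, 50.0 and 134.8 CPM in lines 112, 113, 119 and 73. For Egfr lines 119 and 73 stood at 122.5 and 162.7, and for Fgfr1 lines 112 and 73 at 97.3 and 140.9. Pairs of sums were not tested under it, so those not called apart were read under the locus scaling only.

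**Figure D5:**
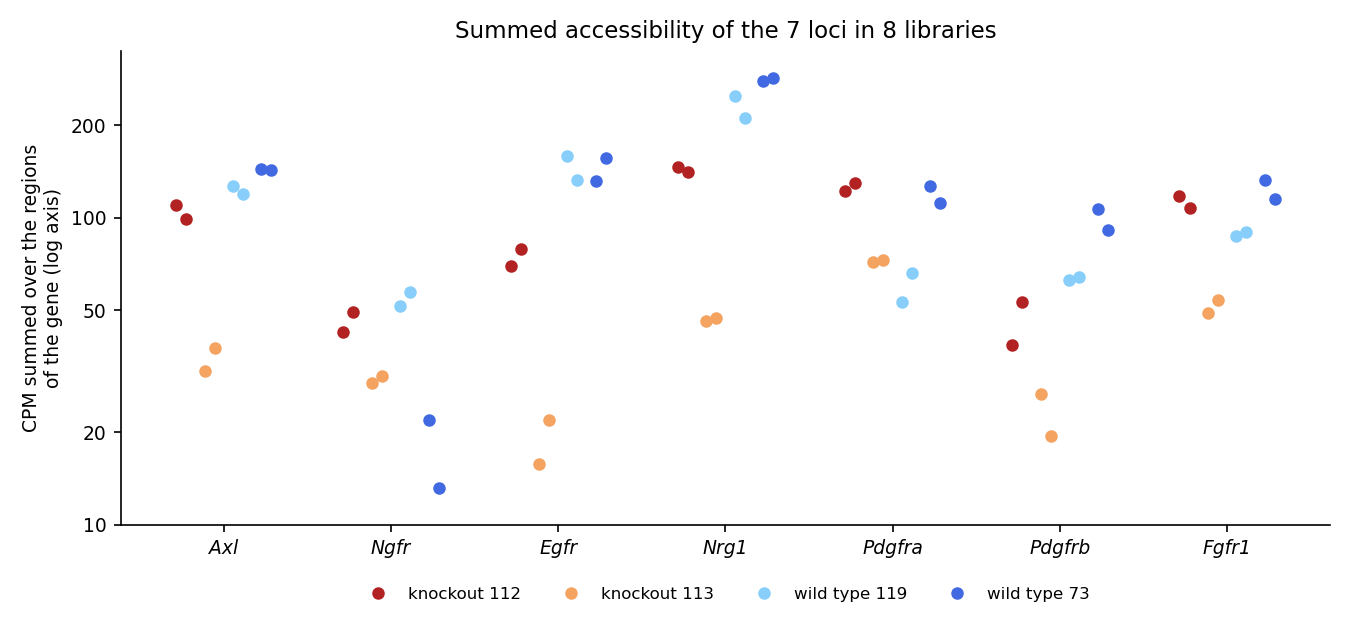
CPM summed over all regions of each gene, on a log axis, with one point per library coloured by line. Line 113 is lowest for Axl, Egfr, Nrg1, Pdgfrb and Fgfr1, line 73 is lowest for Ngfr, and line 119 is lowest for Pdgfra.

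The sums of Axl, Egfr, Nrg1, Pdgfrb and Fgfr1 varied together over the 8 libraries, which are only 4 lines. Pearson's r of their log2 CPM was 0.823 to 0.988 between any pair of these 5. Under the scaling of the region fit it was 0.753 to 0.985. Ngfr stood apart, with r of -0.38 to 0.02 against the other 6 (-0.65 to -0.27 under the region scaling). Pdgfra had r of 0.17 to 0.66 against those 5 (0.10 to 0.71 under the region scaling, the highest with Fgfr1). Among loci on other chromosomes with at least 3 tested regions, the closest to Axl were Chst11 (r = 0.992) and Gsg1 (0.991), and to Ngfr Edar (0.985) and Myo7b (0.983). The closest to Egfr were Srd5a2 (0.995) and Cmklr1 (0.994), and to Nrg1 Speg (0.997) and Rab27b (0.996). For Pdgfra they were Tmem140 (0.985) and Casp8 (0.985), for Pdgfrb Dixdc1 (0.993) and Mchr1 (0.993), and for Fgfr1 Fbln2 (0.986) and Il1r1 (0.985). They were the highest of at least 11329 loci compared for each gene, over libraries that share lines, and only 6 of these 14 were also closest under the region scaling.

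The authors' peak lists, called per library, differed by line too. Of the 119 regions, 25 and 7 overlapped a peak in the libraries of line 112 (21.0% and 5.88%, where 24.5% and 12.6% of all regions did), and 14 and 13 in line 113 (11.8% and 10.9%, where 33.4% and 33.5% did). In line 119 it was 62 and 62 (52.1% in each, where 61.1% and 54.8% of all regions did) and in 73 it was 52 and 56 (43.7% and 47.1%, where 36.2% and 35.7% did). The members' share was thus below that of all regions in both libraries of lines 112, 113 and 119 and above it in those of line 73. Peaks in both libraries of only line 119 were found in 30 regions (25.2%, background 19.9%), of only line 73 in 18 (15.1%, background 7.19%), of only line 113 in 2 (1.68%, background 5.62%) and of only line 112 in 0 (background 0.129%). There were 16 with peaks in both libraries of lines 119 and 73 only (13.4%, background 9.09%), and 0 for lines 112 and 113 only (background 0.629%). Depth moves with these numbers, since line 119 had the most counts and line 112 replicate 2 the fewest, and its part in them was not tested. Of the 119, 5 had a peak in all 8 libraries and 10 in none.

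Ligands and partners of the 7 genes were read at the strongest region within 1 kb of a gene end. Of 40 partner genes, 36 had such a region tested. The smallest adjusted p for the genotype among the 36 was 0.143 in edgeR's test. In 2 the region was separated and higher in knockout and in 4 lower, where 3.15% and 3.61% of all gene-end regions were. By role, the separated genes were 4 of 7 ERBB ligands and 2 of 7 FGF receptors and ligands. They were 0 of 4 TAM receptors and ligands, 0 of 3 ERBB receptors, 0 of 4 PDGF ligands and 0 of 11 adaptors and inhibitors. The median genotype value of the adaptors and inhibitors was 0.03. Their levels still differed between lines, with sums of 366 CPM in line 112, 611 in 113, 350 in 119 and 573 in 73.

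Ligands of the ERBB receptors were found on both sides. Ereg (epiregulin) was lower in knockout, with line means of 4.79 CPM in line 112, 2.11 in 113, 26.5 in 119 and 60.7 in 73 (genotype -3.67 ± 0.78, adjusted p = 0.143), and so was Btc (betacellulin), at 9.74, 4.80, 23.6 and 17.6 (-1.50 ± 0.78, adjusted p = 0.340). Ereg and Btc lie near each other on chromosome 5, with Areg, which was not separated, between them. Higher in knockout were Tgfa (transforming growth factor alpha), with 21.3 CPM in line 112, 24.3 in 113, 10.4 in 119 and 7.38 in 73, and Nrg2 (neuregulin 2), with 26.9, 39.4, 19.3 and 10.8. The fibroblast growth factors Fgf2 (4.78, 3.71, 10.8 and 21.9 CPM in the same order) and Fgf5 (5.64, 5.02, 36.6 and 9.74 CPM) were lower in both knockout lines. Values of these genes describe the lines and were not called for the genotype.

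Markers of the melanocyte lineage gave signal in all lines, though unequally. The 7 of them summed to 142 CPM in line 112, 236 in 113, 79.4 in 119 and 122 in 73, and 0, 0, 2 and 3 of them were under 2 CPM in that order. Of 48 marker genes of melanocytes, dedifferentiated melanoma and other cell types, 36 could be read at a region near a gene end. The pigment genes Tyr, Dct and Mlana were separated and higher in knockout: Tyr had 17.7 CPM in line 112, 19.8 in 113, 4.82 in 119 and 1.86 in 73, Dct had 22.8, 62.5, 3.79 and 0.534, and Mlana 10.4, 10.3, 0.745 and 0.256. Sox10, the crest factor, was at 22.2, 27.9, 17.6 and 3.09 CPM. Mitf was at 24.8, 36.1, 18.8 and 39.1, and Pmel at 39.1, 63.6, 32.7 and 74.6, both highest in line 73. The 9 markers of neural crest and dedifferentiated melanoma include Axl, Ngfr and Egfr. Only Sox9 was separated, lower in knockout (34.07, 44.72, 62.3 and 89.09). Jun (57.35, 118.1, 68.96 and 93.55) and Tead1 (35.39, 53.85, 23.79 and 43.65) were highest in line 113. The adaptors and inhibitors above also summed highest in line 113, so a high level there was not particular to marker genes. Sox2 (1.775, 14.22, 30.25 and 2.285) and Tfap2b (1.967, 0.8159, 7.721 and 1.484) were highest in line 119. Fosl1 (9.887, 13.08, 10.53 and 20.83) was highest in line 73.

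Of the 7 fibroblast markers 6 were highest in line 73, and Lum in line 112. Line 73 also had the highest line mean at the strongest regions of Pdgfra, Pdgfrb and Fgfr1, and likewise at those of Axl and Nrg1. At the strongest region of Ngfr line 113 was highest, and at that of Egfr line 119. The 7 fibroblast markers summed to 45.5 CPM in line 112, 52.9 in 113, 52.8 in 119 and 161 in 73. Of the 7, under 2 CPM were 1 in line 112, 4 in 113, 4 in 119 and 1 in 73. Col1a2, a collagen chain, stood at 32.2 CPM in line 73 and 0.596 to 3.55 in the other lines, and Twist2 at 60.2 against 11.5 to 22.2. The 4 pericyte markers summed to 22.5, 19.5, 13.7 and 53.9 CPM in the same order, of which Acta2 was 44 in line 73 and 3.75 to 5.27 elsewhere. Without Acta2 the other 3 (Rgs5, Cspg4 and Notch3) summed to 18.2, 14.3, 9.97 and 9.89 CPM, and 0 of these 3 were highest in line 73. Their part in the levels of Pdgfra, Pdgfrb and Fgfr1 was not tested. In such bulk libraries, more cells of a type and more open chromatin per cell cannot be told apart. Of the lymphocyte markers, 4 of 8 had a region and Ptprc, Cd4, Cd8a and Cd79a had none, with sums of 12.7, 6.45, 11.2 and 17.3 CPM. Of the endothelial markers 1 of 5 (Kdr) and of the keratinocyte markers 1 of 4 (Krt14) had a region. The 3 Schwann cell markers with a region summed to 45.2, 65.3, 33.6 and 26.3 CPM.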

How the data were processed

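ATAC-seq counts of 8 libraries, 2 for each of 4 lines, were analysed. Per the submitters' processing notes, Bowtie2 2.2.4, Picard 1.118 and MACS2 2.1.1.20160309 were used with mm10 (GRCm38). Their settings, the treatment of duplicates and of the Tn5 shift, and whether reads or fragments were counted are not given in the sources used here, so counts can include PCR copies. The authors deposited raw counts per region in 1 table, with 0 columns of other samples, and a peak list per library. In the peak lists each peak has a score, a ratio (fold over background) and −log10 of p and q, as the authors' deposited files give them. Peaks were used only by position and by −log10 q, and 1 bp was the least overlap with a region.

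Genes came from RefSeq's table for GRCm38.p6, and positions are counted from 1. Regions were filtered on counts summed per line with filterByExpr (minimum count 10, total 15), which left 140329, and scaled by TMM. The tests were two-sided quasi-likelihood tests of edgeR 4.0.16 in R 4.3.3 (glmQLFTest after a robust glmQLFit), with Benjamini-Hochberg adjustment over all regions and a threshold of 0.05. The genotype was tested on counts summed per line, and line pairs in 1 fit of 8 libraries with a mean per line. The SE is the size of the log2 fold change divided by the square root of F. Locus sums were fitted likewise over 17957 loci. The scripts were tested on simulated data. Alternatives were DESeq2 1.42.0, limma 3.58.1 (voom), other scalings, filters and memberships, a regional offset over 10 Mb, each library left out, and a replicate block.

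The members and lists were chosen with earlier results of these data known. Named for each gene were the region nearest the start (or strongest within 1 kb of an end where no strand was given), the strongest, up to 5 separated, and the 2 with the largest range of line means among those called in at least 3 of 6 pairs. The 2 most similar loci per gene, and partner genes with a separated end region, were named too, as was a further region near the Egfr start. The neurotrophin group of the partner list is not reported here.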

Additional observations from a re-analysis of the deposited data

How the results depend on the processing

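Most values kept their direction and their side of the threshold. Among single regions and genes, 814 values under an alternative did so, 25 passed the threshold only under it, 2 no longer passed it and 8 changed sign. Where a value moved, the cause was not tested. The genotype calls among member regions, 0 in edgeR with lines as units, numbered 8 with DESeq2's Wald test and 31 with libraries as units (27.7%, where 22.7% of all regions were called), which takes the difference between lines of a genotype as replicated. With libraries as units 3 loci were also called, as 12.5% of all loci were (Egfr at -1.65, Nrg1 at -1.43 and Pdgfrb at -1.25). DESeq2's Wald test called 26 member regions in line 112 against 119, 17 in line 112 against 113, and 10 as separated. Regions averaging at least 50 counts were only 11, of which 7 were called in line 112 against 119, 6 in 112 against 73, 11 in 113 against 119, 11 in 113 against 73, 10 in 112 against 113 and 8 in 119 against 73, with 4 separated. For line pairs and separated regions, the shares of all regions are given here for the main fit only. Such counts under other settings thus cannot be set against a background.

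Leaving out 1 library at a time gave 30 to 52 calls in line 112 against 119 (the lowest without line 119 replicate 1), 21 to 36 in line 112 against 113 (the lowest without line 113 replicate 1) and 9 to 20 separated regions (the lowest without line 119 replicate 1). With a line left at 1 library, that library is assumed to vary like the others. The smallest adjusted p for the genotype was 0.0668 without line 112 replicate 1. In that fit 633 of all regions and 0 member regions were called for the genotype. With any other library left out, 0 of all regions were called. Regions with a peak, 38.5 per library in the median, were 31 with a −log10 q of at least 5 and 19 with an overlap of at least 50% of the region.

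The genotype value of the Ngfr sum, 0.04, was -0.10 over regions within 10 kb, -0.017 inside the gene only and -0.28 with the regional offset. Leaving out 1 library at a time gave -0.038 to 0.115, below 0 without line 112 replicate 2, line 119 replicate 1 or line 73 replicate 2. That of Pdgfra, 0.14, was -0.024 within 10 kb and -0.23 inside the gene. The replicate numbers share only a number: same-numbered libraries of different lines had correlations of -0.038 to 0.004. A fit with the replicate block gave 18 separated regions and 35 called locus pairs, as without it, and 51, 64, 66, 77, 37 and 71 calls in the 6 line pairs. With 11 counts in the median member region, small differences could be missed at this depth, and how small was not measured.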
